A study of Mus musculus with 30 samples.

Results

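Ribosome biogenesis genes encode the nucleolar factors that transcribe, modify, cleave and fold ribosomal RNA before it leaves the nucleus as part of a ribosomal subunit. A list of 35 of them was followed in mouse leg muscle cell cultures. A listed gene was represented by the brightest probe set annotated to it alone, taken from the first chip (A) of a 2-chip Affymetrix set and from the second (B) only where A had none. In this way 34 of the 35 genes had a probe set, 33 on A and 1, Dkc1, on B, of 18194 genes with a probe set in the whole series. All 34 passed the filter on dim probe sets that left 11771 genes for testing. Npm3 was not analysed here. The cultures were sampled at 0, 4, 12, 24 and 48 h with 3 replicates an hour, each on 1 array of either chip, which gave 30 arrays of total RNA. All groups carry the same description apart from the hour, with no genotype, strain, age, medium or treatment, and what marks 0 h is not given in the sources used here. The labels do not state whether a replicate is its own culture or animal, and p-values here reflect the spread of these arrays alone, which may be technical.

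Ribosome assembly begins in the nucleolus, where RNA polymerase I transcribes a long precursor that holds the 18S, 5.8S and 28S rRNAs. Small nucleolar ribonucleoproteins guide the chemical modification of the precursor: box C/D particles, built on fibrillarin with Nop56 and Nop58, add methyl groups to ribose, and box H/ACA particles, built on dyskerin with Gar1, Nhp2 and Nop10, turn uridine into pseudouridine. A large processome then folds and cuts the part that becomes the small subunit, while a separate set of factors matures the large subunit, and demand for all of them is known to be high in dividing cells and in growing muscle.

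The deposited intensities are linear, with every array brought to the same trimmed mean, so a value stands for a share of the array's signal and not for an amount per cell. At each hour and on both chips replicate 3 stood apart from replicates 1 and 2, a split seen in the data and not in the labels. Results are therefore also given for replicates 1 and 2 alone. Muscle markers were present in all cultures. Limma called 12 of 26 measured markers higher at 48 h than at 0 h, and their summed intensity on A was 132515 to 235305 at 48 h and 112712 to 124148 at 0 h. The mean log2 difference of the markers from their 0 h mean was 0.92, 0.95 and 0.74 at 24 h and 1.14, 1.04 and 0.38 at 48 h in replicates 1, 2 and 3, so in replicate 3 it was lower at 48 h than at 24 h. Of the markers of other cell types, 3 of 12 fibroblast, 3 of 10 adipocyte, 3 of 10 endothelial and 6 of 8 pericyte genes passed the filter on dim probe sets. So did 3 of 12 macrophage, 2 of 7 Schwann cell and 3 of 7 cartilage genes. Some of these changed over the hours. Limma called Col2a1 of the cartilage list lower at 48 h than at 0 h (log2 change -2.43, adjusted p = 0.0083), as it did Cebpa of the adipocyte list (-2.06, adjusted p = 0.0099). Erbb3 of the Schwann cell list was called higher at 48 h (1.07, adjusted p = 0.026 in limma). Tagln of the pericyte list was called higher at 24 h (0.87, adjusted p = 0.011 in limma).

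No ribosome biogenesis gene passed the test for a change over the hours on all arrays. Across the 15 arrays of a chip the highest intensity of a gene was 1.31 to 2.68 times its lowest, with a median of 1.87 over the 34 genes. In limma's F test over the 5 hours, on log2(intensity + pseudocount) with Benjamini-Hochberg adjustment over all tested probe sets of a chip, 0 of the 34 genes were called at an adjusted p under 0.05, and 1, Nop58, had an unadjusted p under 0.05. Among all genes tested 2.06% were called. The mean of 13 of the 34 genes was highest at 48 h, of 6 at 4 h, and of 5 each at 0, 12 and 24 h. At 48 h the mean of 3 genes was at its lowest, against 9 each at 0 and 12 h, 7 at 24 h and 6 at 4 h. In bulk RNA fewer cells of a type and less RNA per cell cannot be told apart.

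**Figure D1:**
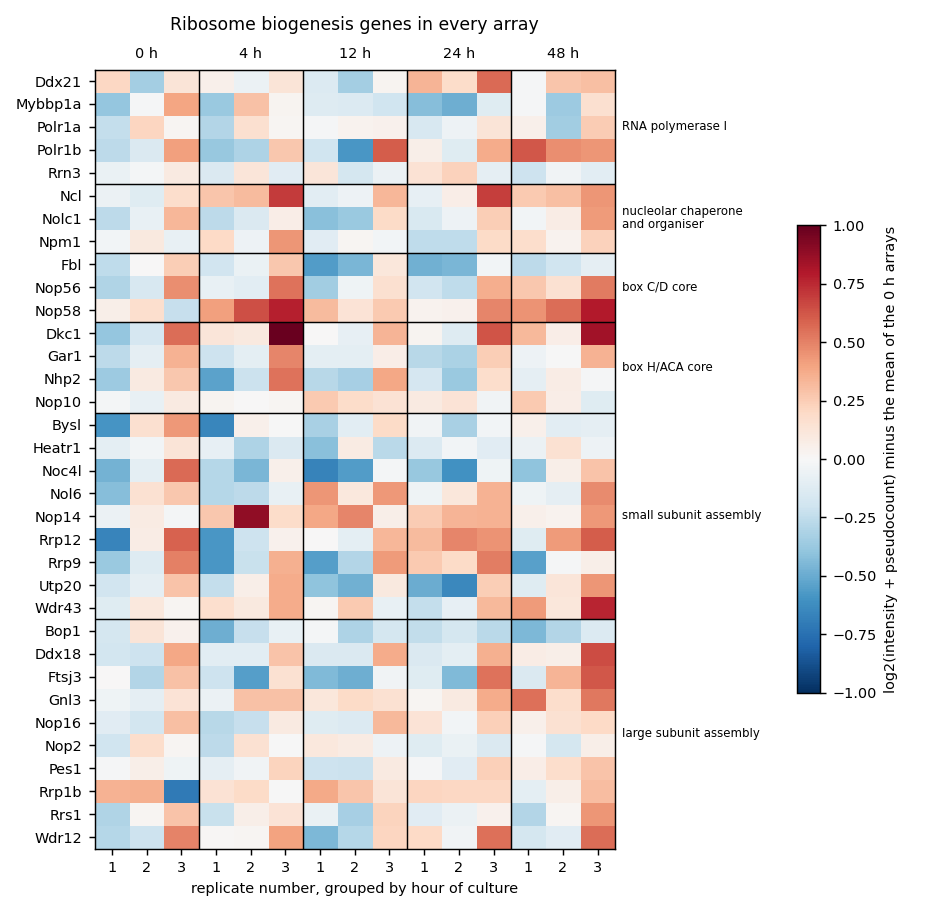
Level of each of the 34 ribosome biogenesis genes (rows, grouped by role) in each of the 15 arrays (columns, grouped by hour, with replicates 1 to 3 in each), as log2(intensity + pseudocount) minus the gene's mean over the 0 h arrays. Red columns for replicate 3 recur at every hour, whereas no such block marks an hour.

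At 48 h most of the genes had a slightly higher mean than at 0 h, but limma called 0 of 34, against 2.08% of all genes. The log2 changes at 48 h ran between -0.29 and 0.60 with a median of 0.12, beside a median of -0.03 over all genes tested. The median of the members moved between 0.03 and 0.25 when an array was left out, the lowest without replicate 3 at 48 h and the highest without replicate 3 at 0 h. Between single arrays of the same hour the SD of the member median was 0.19. It includes the difference of replicate 3 from the other replicates, so it is not the error of the 48 h change. Relative to the 0 h mean, the mean of the 34 genes went from -0.19 at 0 h to 0.02 at 48 h in replicate 1. In replicate 2 it went from -0.02 to 0.06 and in replicate 3 from 0.21 to 0.32. A positive change was seen in 24 of the 34 genes and in 46% of all genes. Over all arrays 3 members, against 14.5% of all genes, had an unadjusted p under 0.05 in limma. With replicate number as a block 9 of the 34 members had one, against 2698 of 11771 genes. In replicates 1 and 2 alone 8 members had one, against 2935 of 11771 genes. All 3 nucleolar chaperones and organisers, 2 of 3 box C/D core genes, 3 of 4 box H/ACA core genes, 6 of 9 small subunit factors, 8 of 10 large subunit factors and 2 of 5 genes around RNA polymerase I were on the positive side. For 32 of the 34 genes the 95% interval of the change lay within 2-fold in both directions, so that larger changes are outside the intervals of those genes. The widest intervals reached from -0.80 at the low end to 1.10 at the high end on the log2 scale. Missing the threshold does not show that the levels were alike.

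Nop58, the box C/D scaffold protein, came nearest to a call. Its intensities in replicates 1, 2 and 3 were at 0 h 1081, 1169 and 881, at 4 h 1384, 1634 and 1795.5, at 12 h 1301, 1145 and 1249, at 24 h 1062, 1069 and 1468, and at 48 h 1427.5, 1539.9 and 1818. All arrays at 4 h and all arrays at 48 h lay above all arrays at 0 h, and the 12 and 24 h arrays overlapped those at 0 h. Its mean was 1595 ± 201 at 48 h and 1044 ± 148 at 0 h (SD, n = 3 each), which gave a log2 change of 0.60 (SE 0.16, adjusted p = 0.079 in limma). In replicates 1 and 2 alone the change was 0.39 (adjusted p = 0.085). Its F test over all hours had an unadjusted p of 0.0075 and an adjusted p of 0.16 in limma. With replicate number as a block Nop58 was called, with adjusted p = 0.021 at 48 h and 0.032 in the F test in limma. It was the 1 member called there in either test, where 3.89% of all genes were called higher at 48 h and 11.3% in the F test.

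Gnl3, which encodes the nucleolar GTPase nucleostemin, and Wdr43, a subunit of the small subunit processome, followed. The Gnl3 intensities in replicates 1, 2 and 3 were at 0 h 1211, 1172 and 1374.5, at 4 h 1199.9, 1535 and 1535.5, at 12 h 1351, 1433.5 and 1389.6, at 24 h 1268, 1329 and 1624, and at 48 h 1843, 1413 and 1810.1. Its 48 h arrays all exceeded its 0 h arrays, with a log2 change of 0.42 (SE 0.15, adjusted p = 0.19 in limma). Wdr43 measured at 0 h 823, 967 and 908.5, at 4 h 1012, 965 and 1168, at 12 h 909, 1081 and 852, at 24 h 758, 845 and 1133, and at 48 h 1213, 974 and 1543 in the same replicate order. The 48 h arrays were again all above those at 0 h, although replicate 2 at 48 h was only just above the highest 0 h array, and the log2 change was 0.43 (SE 0.18, adjusted p = 0.28 in limma). A dimmer Wdr43 probe set had a smaller change at 48 h, 0.12 (adjusted p = 0.90 in limma).

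Upstream of the assembly steps, Polr1b, a large subunit of RNA polymerase I, and Ncl, the abundant nucleolar protein nucleolin that binds precursor rRNA, also had 48 h arrays wholly above those at 0 h. Polr1b measured at 0 h 317, 346 and 521, at 4 h 290.2, 305 and 472, at 12 h 333, 248 and 602, at 24 h 403, 352 and 508, and at 48 h 609.8, 543 and 534 in replicates 1, 2 and 3. At 48 h its 3 arrays lay close together, whereas at the 4 earlier hours replicate 3 was far above the other 2. The log2 change of Polr1b was 0.51 with adjusted p = 0.42 over all arrays, and 0.74 with adjusted p = 0.014 in replicates 1 and 2 alone, both in limma. Ncl measured at 0 h 4765, 4568 and 5623, at 4 h 6035, 6204 and 8065.5, at 12 h 4612, 4790.3 and 6255, at 24 h 4678, 5209.9 and 8043, and at 48 h 5967, 6118 and 6769, with its highest mean at 4 h and with replicate 3 the highest at every hour. At 48 h its log2 change was 0.34 (adjusted p = 0.43) over all arrays and 0.37 (adjusted p = 0.046) in replicates 1 and 2 alone, in limma. On the brightest probe set of each gene, Ncl and Polr1b were the 2 of 34 called at 48 h in replicates 1 and 2 alone. Both were higher, where 5.38% of all genes were called higher. The F test on those replicates called the same pair (adjusted p = 0.037 for Ncl and 0.011 for Polr1b in limma), against 16.3% of all genes. With Pes1, a large subunit factor, the genes just described make up the 6 of 34 whose 48 h arrays all exceeded their 0 h arrays, against 8.26% of all genes. For 0 of 34 did all 48 h arrays lie below those at 0 h, against 10.1% of all genes.

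**Figure D2:**
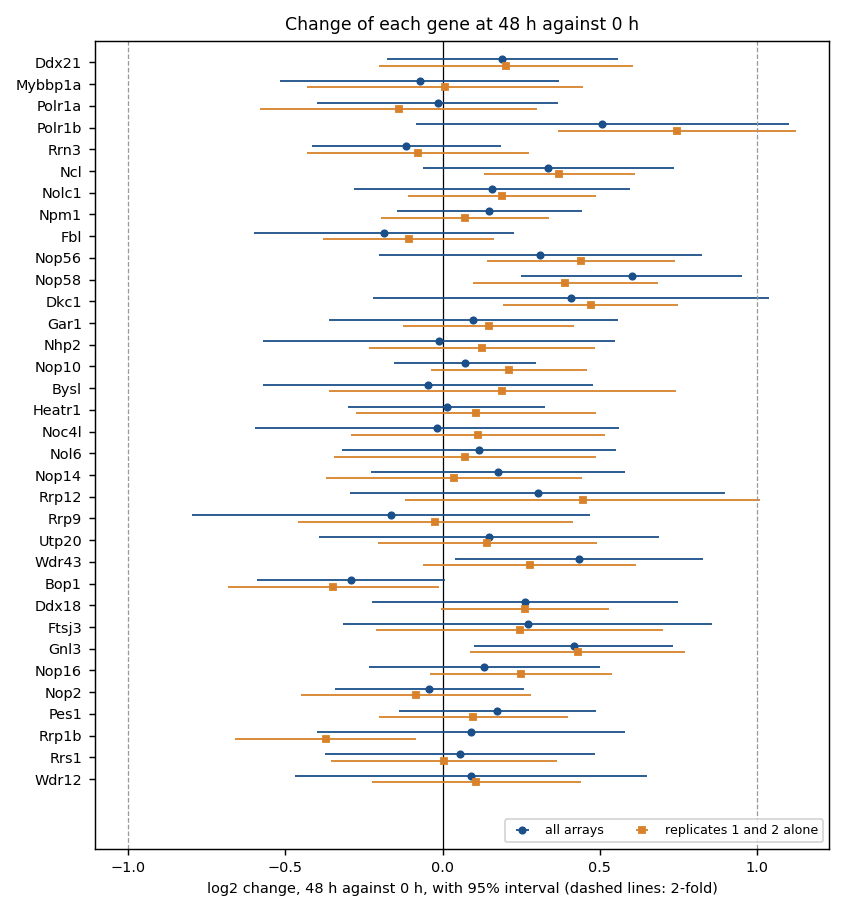
Log2 change at 48 h against 0 h for each of the 34 genes with its 95% interval, over all arrays (circles) and in replicates 1 and 2 alone (squares). The points lie between -0.29 and 0.60 over all arrays, and the interval of most genes spans 0.

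RefSeq promoter windows, 250 bases before to 50 bases after the start site on GRCm38.p6, were found for 28 of the 34 genes. They are described because the E-box CACGTG is the known binding sequence of Myc, a transcription factor linked to ribosome synthesis. Shares are of genes: a gene with several windows counts once, as a match if any of them holds the motif. CACGTG, which reads the same on both strands, occurred in 6 of 28 genes (21.4%): Wdr43, Nop2, Utp20, Pes1, Mybbp1a and Rrn3. Of all genes with a window of that length, 8.09% had it. Of the 6 genes with the E-box 1, Utp20, was called higher in replicate 3 on its brightest probe set (a difference given further on). So were 13 of the 22 genes without it, where 14.9% of all genes tested were called higher. The 2 counts were not tested against each other, and a part of Myc in that difference was not tested. The count depends on the probe set: on a dimmer one Mybbp1a was called too (log2 difference 0.54, adjusted p = 3.00e-05 in limma). The same held for Wdr43 (0.54, adjusted p = 0.0024 in limma) and, among genes without the E-box, for Rrp1b (0.37, adjusted p = 0.023 in limma). The ETS core, CGGAAG or CTTCCG on the opposite strand, occurred in 13 of 28 (46.4%) and in 18.8% of all genes with a window. The NRF1 core GCATGC occurred in 2 of 28 (7.14%) and in 8.93% of all genes with a window. The ETS core was counted on both strands, and its 2 forms can share bases. Among other pre-ribosome factors the shares were 23.3%, 72.6% and 16.4% for the E-box, the ETS core and the NRF1 core. Of the 10 genes with the smallest F test p, 7 have a window, and among these CACGTG is in that of Wdr43 alone, which lies at chr17:71615965-71616264 on the plus strand, with the E-box in capitals in the bases after the start site. That of Nop58, at chr1:59684756-59685055 on the plus strand, holds none of the 3 motifs and is shown beside it. A match is a description of letters and not evidence of binding, and no match says only that those letters are not in that window.
Wdr43: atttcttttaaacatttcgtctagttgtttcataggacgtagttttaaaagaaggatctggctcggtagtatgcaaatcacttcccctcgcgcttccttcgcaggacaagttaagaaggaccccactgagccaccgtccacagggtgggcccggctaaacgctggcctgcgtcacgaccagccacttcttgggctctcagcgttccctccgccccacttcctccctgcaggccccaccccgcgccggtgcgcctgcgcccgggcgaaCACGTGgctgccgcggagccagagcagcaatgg
Nop58: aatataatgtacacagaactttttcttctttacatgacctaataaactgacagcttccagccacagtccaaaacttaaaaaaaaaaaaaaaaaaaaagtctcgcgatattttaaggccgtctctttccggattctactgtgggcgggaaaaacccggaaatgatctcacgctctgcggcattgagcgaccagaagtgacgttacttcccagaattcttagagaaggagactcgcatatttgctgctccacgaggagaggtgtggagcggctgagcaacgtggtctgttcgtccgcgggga

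The 10 genes with a lower mean at 48 h than at 0 h were Fbl, Nop2, Nhp2, Bop1, Rrp9, Bysl, Noc4l, Polr1a, Rrn3 and Mybbp1a, and 0 of them were called. Bop1, which forms a large subunit assembly complex with Pes1 and Wdr12, had the most negative change, with intensities of 1550.0, 1734 and 1937 at 48 h, against 1877, 2336 and 2197 at 0 h (replicates 1, 2 and 3). The arrays of the 2 hours overlapped, and the log2 change was -0.29 (adjusted p = 0.35 in limma). A dimmer Bop1 probe set on B had a log2 change of -1.41 (adjusted p = 0.3 over all arrays and 0.0078 in replicates 1 and 2 alone, in limma). Its partners Pes1 and Wdr12 had changes of 0.17 and 0.09. A dimmer Bysl probe set on A went the other way, with a log2 change of 0.34 over all arrays. Its adjusted p was 0.37 over all arrays and 0.042 in replicates 1 and 2 alone, in limma.

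Among the genes around RNA polymerase I, Polr1a, the largest subunit, and Rrn3, the initiation factor that brings the polymerase to the ribosomal DNA promoter, gave no call at any hour. Polr1a measured at 0 h 528, 735.5 and 638.5, at 4 h 508, 706 and 636, at 12 h 625, 643 and 649, at 24 h 561, 606 and 692, and at 48 h 651, 487 and 756 in replicates 1, 2 and 3. No hour stood out, the 3 arrays of 12 h lay closest together, and the log2 change at 48 h was -0.02. Rrn3 measured at 0 h 469, 487 and 525.5, at 4 h 443.5, 538 and 453, at 12 h 538, 435 and 472, at 24 h 549.6, 583 and 461, and at 48 h 423, 480.4 and 457.5. All its arrays fell in a narrow band, with a log2 change of -0.12 at 48 h and 95% interval from -0.42 to 0.18. Fbl, the methyltransferase fibrillarin of the box C/D particle, measured at 0 h 2752, 3288.5 and 3899.8, at 4 h 2866.5, 3137 and 3955.5, at 12 h 2213, 2381 and 3544, at 24 h 2347.5, 2379 and 3220.2, and at 48 h 2728, 2854 and 3073. Its replicate 3 arrays were the highest at each hour, and those of different hours overlapped.

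At 4 h limma called 0 of 34 genes, as it did 0% of all genes, and 3 members, against 4.38% of all genes, had an unadjusted p under 0.05. The median log2 change was -0.00 for the 34 genes and -0.03 for all genes, and 17 of the 34 were positive, against 43.3% of all genes. Nop58, Nop14 and Ncl had the smallest p, and these 3 were the genes whose 4 h arrays all exceeded the 0 h arrays, against 3.88% of all genes. Nop58 had a log2 change of 0.61 (SE 0.16, adjusted p = 0.88 in limma), as large as at 48 h. Nop14, a core component of the small subunit processome, measured at 0 h 396, 441 and 409, at 4 h 505.5, 790.4 and 475, at 12 h 552, 595 and 434, at 24 h 499.5, 532 and 535, and at 48 h 432, 427 and 571 in replicates 1, 2 and 3. Its 4 h value in replicate 2 was the highest of all, and only replicate 3 at 12 h and replicates 1 and 2 at 48 h reached into the range of its 0 h arrays. Ncl had a change of 0.43 at 4 h (adjusted p = 0.96 in limma).

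At 12 h limma again called 0 of 34 genes, against 0% of all genes. Over all arrays 0 members had an unadjusted p under 0.05, against 6.75% of all genes. With replicate number as a block 2 members had one, against 1673 of 11771 genes. The median log2 change was -0.05, beside -0.01 over all genes, with 14 of 34 positive, against 48.3% of all genes. The smallest p belonged to Nop10, the small structural subunit of the box H/ACA particle, which measured at 0 h 4710.5, 4549 and 5105, at 4 h 4876, 4803 and 4854, at 12 h 5729, 5426 and 5290.5, at 24 h 5096, 5267 and 4659, and at 48 h 5752, 4998 and 4403 in replicates 1, 2 and 3. Its 12 h arrays all exceeded those at 0 h, the single gene of the 34 to do so, against 6.7% of all genes. Its log2 change was 0.19 (adjusted p = 0.81 in limma). Nol6, a small subunit processome factor, measured at 0 h 437, 669 and 726, at 4 h 485, 493 and 565, at 12 h 822, 643.5 and 815, at 24 h 580.5, 648 and 770.0, and at 48 h 581, 561 and 841, with overlap between 12 and 0 h and a log2 change of 0.32 (adjusted p = 0.84 in limma).

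At 24 h limma called 0 of 34 genes, against 2.61% of all genes. Over all arrays 0 members had an unadjusted p under 0.05, against 16.2% of all genes. With replicate number as a block 5 members had one, against 3033 of 11771 genes. The median log2 change was 0.03, beside -0.05 over all genes, with 19 of 34 positive, against 43.8% of all genes. Nop14 was the single gene whose 24 h arrays all exceeded its 0 h arrays, against 9.68% of all genes. Ddx21, an RNA helicase that links RNA polymerase I transcription to rRNA processing, measured at 0 h 888, 599 and 841, at 4 h 791.5, 732 and 839, at 12 h 694, 598 and 782, at 24 h 976, 871 and 1146, and at 48 h 759, 935 and 949. Its 24 h arrays were the highest of any hour in replicates 1 and 3, but replicate 2 at 24 h lay below the highest 0 h array, and the log2 change was 0.36 (SE 0.17, adjusted p = 0.31 in limma). Mybbp1a, a nucleolar protein that interacts with RNA polymerase I, measured at 0 h 1775, 2316 and 3075, at 4 h 1799.8, 2854 and 2375, at 12 h 2127, 2116 and 2023, at 24 h 1731, 1656 and 2141, and at 48 h 2306, 1802.5 and 2609. Its 0 h arrays spread widely, and at 24 h replicate 3 lay inside their range and replicates 1 and 2 below it, with a change of -0.34 (adjusted p = 0.45 in limma). Fbl had a change of -0.32 at 24 h (adjusted p = 0.45 in limma). Rrp12, a small subunit export factor, had the most positive change at 24 h, 0.42 (SE 0.28, adjusted p = 0.51 in limma), and measured at 0 h 144, 258 and 382, at 4 h 154, 208 and 253, at 12 h 246, 227 and 316, at 24 h 311.5, 355 and 344, and at 48 h 222, 338.5 and 387. Its 24 h arrays lay close together inside the range of the 0 h arrays.

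Npm1, the histone and ribosomal protein chaperone nucleophosmin, was among the 10 genes with the smallest F test p and measured at 0 h 6834, 7445 and 6610.5, at 4 h 7972, 6716 and 9463.5, at 12 h 6427, 7044 and 6821, at 24 h 5826, 5827 and 7938, and at 48 h 7861, 7138 and 8159 in replicates 1, 2 and 3. The highest value was replicate 3 at 4 h and the lowest were replicates 1 and 2 at 24 h, and its log2 changes against 0 h lay between -0.11 and 0.20. Of the 34 genes, 4 are read by probe sets that the manufacturer marks as shared by several transcripts (Fbl, Nop56, Nhp2 and Gar1), and such a signal can include related sequences. With all probe sets counted, 21 genes had at least 2 that were tested, and in 6 of those 21 the probe sets differed in sign at 48 h.

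The difference that the genes did show was between replicates. In replicate 3, over all hours, 18 of the 34 genes were higher and 0 lower than in replicates 1 and 2 (limma with hour as a further factor, adjusted p under 0.05), against 14.9% of all genes higher and 15.7% lower. The median log2 difference was 0.31 over the 34 genes and -0.01 over all genes tested. Replicate 3 exceeded both other replicates at all 5 hours in 14 of the 34 genes, against 11.4% of all genes. The genes called were 2 of 3 box C/D core genes, 3 of 4 box H/ACA core genes, 2 of 3 chaperones and organisers, 5 of 9 small subunit factors, 5 of 10 large subunit factors and 1 of 5 genes around RNA polymerase I. Since the split was first seen in these arrays, the calls describe it and are no test of a labelled condition. The fit counts the arrays of the 5 hours of a replicate as separate units. If a replicate number stands for a single series of cultures, the p-values do not measure the spread between such series.

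Dkc1, the pseudouridine synthase dyskerin, differed most, with 9326, 12619, 8032, 9843 and 11347 at 0, 4, 12, 24 and 48 h in replicate 3, against 4822, 6886, 6346, 6448 and 7925 in replicate 1 and 5635, 6776.5, 5974, 5799 and 6619.5 in replicate 2. The groups did not overlap: the lowest replicate 3 array exceeded the highest of the others. Its log2 difference was 0.68 (SE 0.08, adjusted p = 2.17e-05 in limma). Rrp9, a protein of the U3 particle that guides cleavage of the precursor, measured 840.2, 754, 794.5, 844 and 609 in replicate 3, against 445, 381, 389.6, 707 and 393 in replicate 1 and 531, 497, 472.5, 672 and 580.4 in replicate 2. It was highest in replicate 3 at each hour, by the least at 48 h, and the log2 difference was 0.59 (adjusted p = 0.00072 in limma).

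Wdr12, the large subunit factor that joins Pes1 and Bop1, measured 674, 628, 549.6, 699 and 703 at the 5 hours in replicate 3, against 379, 473, 335, 541.5 and 413 in replicate 1 and 402, 476, 379, 456 and 432 in replicate 2. All replicate 3 arrays exceeded all others (log2 difference 0.58, adjusted p = 5.29e-05 in limma). Noc4l, a partner of Nop14 in the small subunit processome, measured 1334, 927, 879, 865 and 1095 in replicate 3, against 634, 725, 551.5, 680.3 and 669 in replicate 1 and 833, 642, 595, 576 and 927 in replicate 2. Replicate 3 was the highest at each hour, and the log2 difference was 0.56 (adjusted p = 0.00038 in limma). Fbl, Ncl, Nop56 and Gar1 had log2 differences of 0.39, 0.39, 0.52 and 0.45 and were also called.

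Other genes of the same machinery did not differ in this way. Heatr1, a scaffold of the small subunit processome, measured 901, 741, 680.1, 759 and 794 at the 5 hours in replicate 3, against 767, 778, 609, 745 and 788 in replicate 1 and 809, 658, 876, 809.9 and 918 in replicate 2. Nop2, an rRNA methyltransferase of the large subunit, measured 1151, 1133, 1092, 1027 and 1185 in replicate 3, against 986, 942, 1225, 1042 and 1125 in replicate 1 and 1289, 1268, 1201, 1081 and 1001 in replicate 2. For both genes replicate 3 lay within the range of the others, with log2 differences of 0.00 (95% interval -0.19 to 0.20) and 0.01 (-0.18 to 0.20). Rrn3, Nop10 and Nop14 had differences of -0.05, -0.07 and -0.07. Rrp1b, a large subunit factor named after its values were seen, had -0.22 on its brightest probe set, where the 0 h array of replicate 3 was far below all others, but 0.37 on the next brightest (adjusted p = 0.023 in limma).

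**Figure D3:**
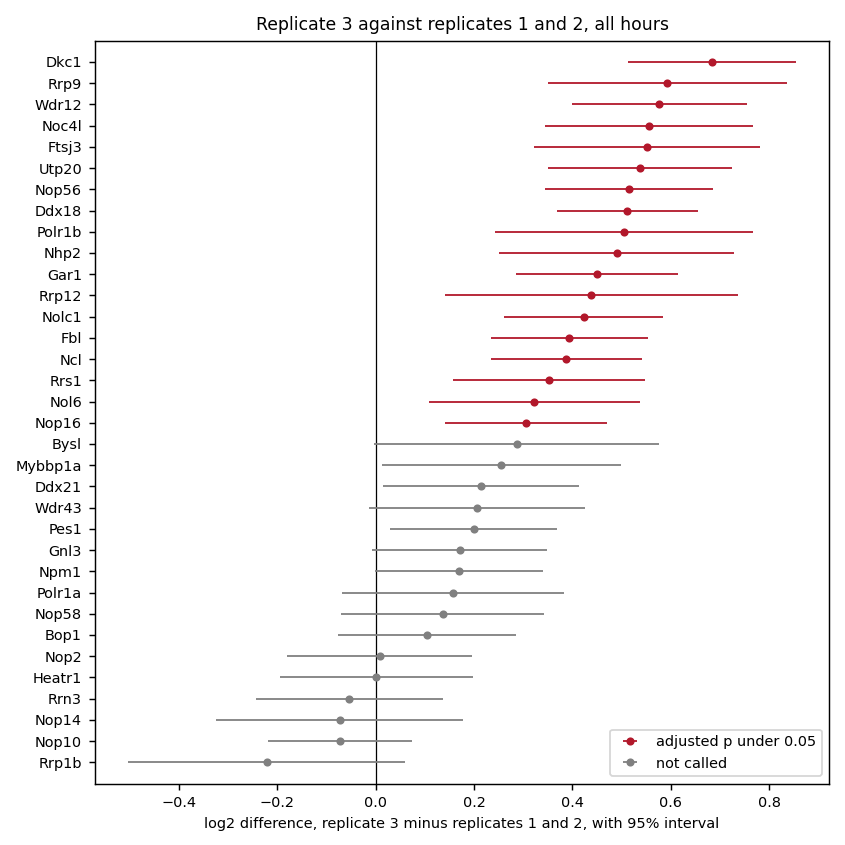
Log2 difference between replicate 3 and replicates 1 and 2 over all hours for each of the 34 genes, with its 95% interval, sorted by size. Red points passed an adjusted p under 0.05 in limma, 18 genes in all, and lie between 0.31 and 0.68.

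Cell division genes moved with this difference, and by more. All 37 measured mitosis genes and 31 of 32 measured S phase genes were called higher in replicate 3, against 14.9% of all genes. All 32 S phase genes had a positive difference. The median log2 differences of the mitosis and S phase lists were 1.06 and 0.93. The summed intensity of the mitosis list on A was 38392 to 52529.6 in replicate 3 and 13388.5 to 29083 in replicates 1 and 2, and that of the S phase list was 40438 to 53783 in replicate 3 and 19316 to 34868 in the others. Myc was higher as well, with 1129.5, 939.6, 869.9, 1191 and 1667 at the 5 hours in replicate 3, against 589.6, 661, 377, 546 and 735 in replicate 1 and 631, 520.5, 412, 457 and 921 in replicate 2 (log2 difference 0.96, adjusted p = 1.24e-06 in limma). Of the muscle markers, 3 were called higher and 7 lower in replicate 3, of 26 measured, against 14.9% and 15.7% of all genes. Markers of other cell types went both ways: the genes called higher were Col1a2 of the fibroblast list (log2 difference 0.82), Lpl of the adipocyte list (1.42), Cspg4 of the pericyte list (0.78), Cd14 of the macrophage list (0.47) and Col11a1 of the cartilage list (1.15). Among those called lower were Postn (-0.89), Cebpa (-0.51), Tek (-0.59) and Adgre1 (-0.52), of the fibroblast, adipocyte, endothelial and macrophage lists. The pericyte list had 2 called lower and the Schwann cell list 0 in either direction. The summed intensity on A was 3406.6 to 4794.4 in replicate 3 and 2353.6 to 4848.7 in replicates 1 and 2 for the fibroblast list, and 10927.6 to 19152.6 in replicate 3 and 12086.1 to 23742.7 in the others for the pericyte list. Those of the adipocyte, macrophage, Schwann cell and cartilage lists also overlapped between the replicates, as did that of the endothelial list, at 477.9 to 557.5 in replicate 3 and 527.2 to 862.1 in the others. The part of each of these in the difference of the ribosome biogenesis genes was not tested.

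Genes that make up or supply the ribosome in other ways are given beside them, with no test between the lists. Of 81 other measured pre-ribosome factors 26 were called higher in replicate 3 and 0 lower, with a median of 0.18. Over all genes tested 14.9% were called higher and 15.7% lower. Of 12 other genes of RNA polymerase I and its cofactors 2 were called higher and 0 lower. Ubtf, which binds the ribosomal DNA, had a log2 difference of 0.20 (adjusted p = 0.12 in limma). Cytosolic ribosomal protein genes had 0 of 41 called in either direction, 3 with an unadjusted p under 0.05, and a median of 0.02. Replicate number accounted for a median of 40.1% of the variance of a ribosome biogenesis gene over the 15 arrays of its chip and hour for 29.8%. These are shares of the raw sum of squares, not corrected for the number of groups. Unrelated values would also give a share to each, and a larger one to 5 hours than to 3 replicate numbers. Over all genes tested the medians were 20.2% for replicate number and 32.4% for hour, and for ribosomal protein genes 3.75% and 45.2%. Nop58 stood at one end of the 34 genes, with 5.69% for replicate number and 70.1% for hour, and Ddx18, a large subunit helicase named after its values were seen, at the other with 84.6% and 13.5%.

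**Figure D4:**
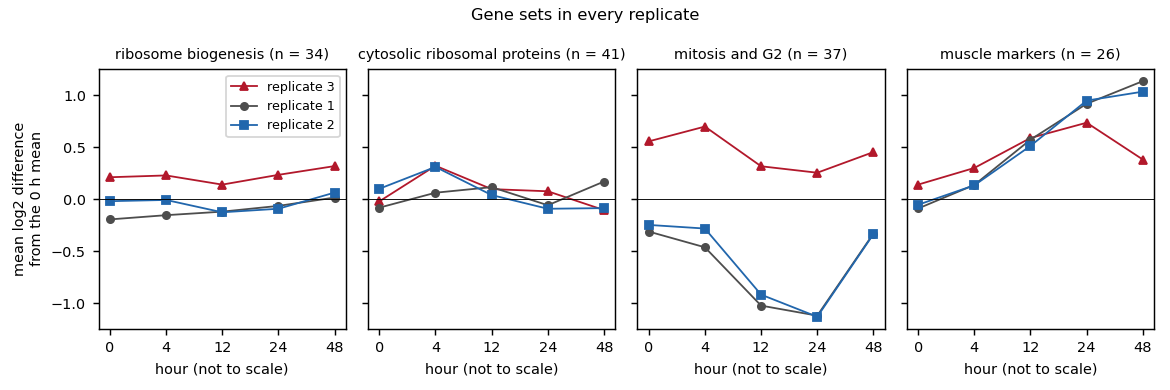
Mean log2 difference from the 0 h mean over the genes of 4 lists (panels), for replicate 3 (triangles), replicate 1 (circles) and replicate 2 (squares) at each hour. The ribosome biogenesis genes lie between -0.19 and 0.32, with replicate 3 above the others at every hour. Muscle markers are highest at 48 h in replicates 1 and 2 and at 24 h in replicate 3, and the mitosis genes of replicates 1 and 2 dip at 12 and 24 h.

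Over the hours, the other lists of the pathway gave no calls at 48 h on all arrays, where 2.08% of all genes were called. Of the 81 other pre-ribosome factors 0 were called and 8 had an unadjusted p under 0.05 in limma, with a median log2 change of 0.11 and 57 positive. In replicates 1 and 2 alone 1 of them was called higher and 1 lower, against 5.38% and 6.61% of all genes, and with replicate number as a block 3 were called higher and 0 lower. Esf1 and Tsr1 had changes of 0.52 and 0.47 (adjusted p = 0.099 and 0.16 in limma), and Rrp8, an rRNA methyltransferase, went the other way with -0.44 (adjusted p = 0.16). Of the 12 other genes around RNA polymerase I 0 were called and 1 had an unadjusted p under 0.05. Polr1c, a subunit that RNA polymerases I and III share, had -0.38 (adjusted p = 0.2 in limma), and Ubtf had -0.24 (adjusted p = 0.58). The 41 ribosomal protein genes gave 0 calls and 0 unadjusted p under 0.05 in limma at 48 h, with a median of 0.01. At 4 h their median was 0.25 with 37 of 41 positive, 0 called and 20 with an unadjusted p under 0.05, against 4.38% of all genes, while the median of the ribosome biogenesis genes was -0.00. In replicates 1 and 2 alone 3 of the 41 had an unadjusted p under 0.05 at 4 h, against 9.53% of all genes, and the median was 0.19. Over the same hours 12 of 26 muscle markers were called higher at 48 h and 0 lower, with 22 positive and 4 negative. Among those called was Mef2c, a muscle transcription factor, with a log2 change of 2.04 (adjusted p = 0.0031 in limma). Myf5 went the other way, with -1.05 at 48 h (adjusted p = 0.099 in limma) and -1.31 at 24 h (adjusted p = 0.031 in limma).

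The 18S rRNA itself is read by 3 control probe sets on each chip, for its 5′ part, its middle and its 3′ part, and these did vary. How the RNA was primed and labelled is not given beyond the manufacturer's protocol, so their signal is not a measure of the amount of rRNA in the cells. The geometric mean of the 3 probe sets in replicates 1, 2 and 3 on A was 651, 318 and 319 at 0 h, 405, 1229.6 and 1545 at 4 h, 299.8, 151 and 194 at 12 h, 1246, 198 and 111 at 24 h, and 2243, 2622 and 3749.7 at 48 h. On B it was 4025, 2026 and 2077 at 0 h, 2205, 5263 and 9310.4 at 4 h, 2039, 850.1 and 1189.9 at 12 h, 7039, 1293 and 723 at 24 h, and 10894, 11835 and 19813 at 48 h. On both chips the 48 h arrays were the 3 highest of the 15 and did not overlap any other hour. The other hours were mixed, with high values in replicate 1 at 0 and 24 h and replicates 2 and 3 at 4 h.

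At 48 h the 18S signal was 6.94 times that at 0 h on A (log2 difference 2.80) and 5.32 times on B (2.41), each with a two-sided exact permutation p of 0.1, the smallest that 3 arrays against 3 can give. Against 0 h the log2 difference on A and B was 1.18 and 0.89 at 4 h (exact permutation p = 0.2 on both chips), -0.97 and -1.01 at 12 h (exact permutation p = 0.1 and 0.2), and -0.42 and -0.45 at 24 h (exact permutation p = 0.8 on both). The 24 h value rests on replicate 1: without that array it was -1.45 on A. The 3 parts of the 18S were not equal: at 12 h on A the 5′ probe set differed by -2.18, the middle by -0.25 and the 3′ by -0.49. As a measure of RNA quality, the 3′ to 5′ ratio on A was 1.09 to 1.14 at 48 h and 1.09 at 0 h for actin, and 0.828 to 0.843 at 48 h and 0.799 to 0.863 at 0 h for Gapdh. On B it was 1.05 to 1.14 at 48 h and 1.05 to 1.13 at 0 h for actin, and 0.724 to 0.818 at 48 h and 0.809 to 0.864 at 0 h for Gapdh. The part of labelling or RNA quality in the 18S signal was not tested.

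The ribosome biogenesis genes showed no change of that size. In the 48 h arrays of replicates 1, 2 and 3 the 18S signal on A was 2.47, 2.70 and 3.21 above its 0 h mean on the log2 scale, while the mean of the 34 genes was 0.02, 0.06 and 0.32 above. In the 24 h arrays the 18S signal stood at 1.63, -1.03 and -1.87, while the mean of the genes stood at -0.06, -0.09 and 0.24. Within every hour the 18S signal on A spanned more than the mean of the genes did over all 15 arrays. Because each array had been scaled to its own overall signal, a value given relative to 18S mostly carries the 18S change: relative to 18S the median of the 34 genes at 48 h was -2.67 and that of all genes was -2.71.

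**Figure D5:**
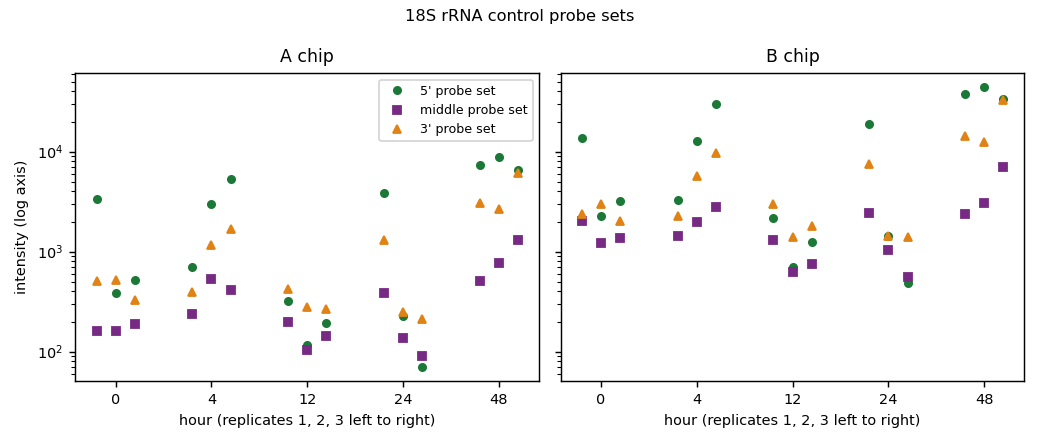
Intensity (log axis) of the 3 control probe sets for 18S rRNA in each array of chip A (left) and chip B (right), with replicates 1, 2 and 3 from left to right at each hour. The 48 h arrays are the highest on both chips by the mean of the 3 probe sets, and arrays of the same hour differ widely at 0, 4 and 24 h.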

How the data were processed

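Each array has its own column of deposited probe set intensities on a linear scale, and per the labels the total RNA went through the standard Affymetrix protocol. How probes were summarised, with which software and detection calls, is not given in the sources used here. The 2%-trimmed mean was 500.1 to 500.2 on all 30 arrays, so no further scaling was applied. Probe sets were named through GEO's platform annotation, which gave 1 gene to 20393 probe sets on A and 14674 on B and several genes to 691 and 245, which were not used for a gene.

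From the deposited intensities log2(intensity + pseudocount) was computed, with the 20th percentile of a chip (29 on A, 54 on B) as pseudocount, so changes of dim genes are understated. Control probe sets were left out, and the upper 60% of probe sets by mean (13576 on A, 13507 on B) entered the tests. In limma 3.58.1 (R 4.3.3, eBayes with intensity trend) the 15 arrays of a chip were fitted together by hour. All comparisons share the 0 h arrays. P-values are two-sided and were adjusted by Benjamini-Hochberg within chip and comparison, with calls at an adjusted p under 0.05. The fits were tested on simulated data. With 3 arrays per hour on each chip the number of arrays limits the precision.

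The members and lists were chosen with earlier results of these data known. Genes given with every array were the 10 with the smallest F test p, the 3 with the smallest p in each comparison with 0 h, the 4 largest and 2 smallest differences of replicate 3, and Ncl, Npm1, Fbl, Dkc1, Polr1a and Rrn3. Members with a lower mean at 48 h are named, and of other lists up to 3 genes by p at 48 h, 1 against the majority, Myc and Ubtf. Promoter windows came from RefSeq (GRCm38.p6). Alternatives changed the scaling, pseudocount, filter, variance model, threshold, probe set and arrays used.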

Additional observations from a re-analysis of the deposited data

How the results depend on the processing

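Over all members the call count stayed at 0 at 4, 12 and 24 h under every alternative run, and leaving out each array in turn gave 0 calls at every hour and in the F test and 17 to 19 in replicate 3. The median log2 change at 48 h lay between 0.03 and 0.25 when an array was left out. The number of arrays limits the precision, and dim probe sets carry the most error. Correlations between deviations of arrays with the same replicate number were as low as 0.044 on A and 0.0026 on B for replicate 1 and 0.038 on B for replicate 2, while replicate 3 had 0.475 to 0.726 (A) and 0.227 to 0.432 (B). Since not every pair was over 0.1, the numbers were not taken to pair the samples. The fit with replicate number as a block called 1 member in the F test and 1 at 48 h, Nop58 both times (adjusted p = 0.032 and 0.021 in limma), where all arrays without the block gave 0. Of 11771 genes that fit called 1334 in the F test and, at 48 h, 458 higher and 539 lower. Array quality weights called 2 in the F test and 1 at 48 h, and replicates 1 and 2 alone called 2 and 2.

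Centring each array on its 18S probe sets called 34 of 34 members in the F test and 34 at 48 h and 0 in replicate 3, since it carries the 18S change into every gene. The member medians became -1.18, 0.92, 0.45 and -2.67 at 4, 12, 24 and 48 h, beside -1.14, 0.97, 0.38 and -2.71 for all genes, so that relative to all genes the members stood at -0.05, -0.05, 0.07 and 0.04. By construction signs then turned for single genes: at 4 h Nop58 -0.57, Nop14 -0.74 and Ncl -0.75, at 24 h Fbl 0.10 and Mybbp1a 0.080, and in replicate 3 Nop10 0.14 and Rrn3 0.16. At 48 h all 24 positive members turned and the 34 lay between -3.09 and -2.00. Among them were Nop58 -2.19, Ddx21 -2.61, Gnl3 -2.38, Wdr43 -2.36, Ncl -2.46, Nol6 -2.68, Rrp12 -2.49, Npm1 -2.65, Polr1b -2.29, Nop14 -2.62 and Dkc1 -2.00.

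In replicate 3 an added threshold of 1.5-fold left 2 calls, and the next brightest probe set gave 11 calls among the 21 genes with one. That probe set also turned Nop10 at 12 h (-0.0068), Ddx21 at 24 h (-0.32) and Bysl at 48 h (0.34), and in replicate 3 Rrp1b (0.37), Bysl (-0.072), Rrn3 (0.15) and Heatr1 (-0.20), and averaging all its probe sets turned Rrp1b (0.10). The cause was not tested. For 18S, the 5′ probe set alone gave -2.18 at 12 h on A, the middle one alone gave 1.30 at 48 h on B, and leaving out an array moved the 24 h value on A between -1.45 and 0.30. Fits on only the arrays of the hours compared give no F test and no replicate 3 value.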

Other observations

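Of 10 measured genes of the Myc network, 3 were called higher and 2 lower in replicate 3, against 14.9% and 15.7% of all genes. Those called higher were Myc, Mxd3 (log2 difference 0.43, adjusted p = 0.046 in limma) and Mxi1 (0.27, adjusted p = 0.049 in limma), of which the last 2 are named after their values were seen. Mycl, which encodes the Myc family member L-Myc, was lower in replicate 3 over all hours (log2 difference -1.19, adjusted p = 2.21e-08 in limma), as was Mxd4, a partner of Max known as a repressor (-1.42, adjusted p = 6.04e-08 in limma). At 48 h against 0 h Mycl had a log2 change of -1.80 (adjusted p = 0.077 in limma), with 367, 367 and 144 at 48 h, against 1276, 1315 and 622 at 0 h in replicates 1, 2 and 3. All its 48 h arrays lay below all 0 h arrays.

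Mitochondrial ribosomal protein genes, which serve the separate ribosome of mitochondria, gave 0 calls of 73 at 48 h in limma, with 7 at an unadjusted p under 0.05 and a median log2 change of -0.03. Mrpl4 had a change of -0.39 (adjusted p = 0.16 in limma), with 1127, 1112 and 1089.5 at 48 h, against 1273, 1721 and 1418 at 0 h. In replicate 3 the list had 12 genes called higher and 1 lower, against 14.9% and 15.7% of all genes, with a median log2 difference of 0.08.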
